A study of Homo sapiens with 42 samples.

Results

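The 8 genes described here encode inhibitors of the cyclin-dependent kinases (CDKs), the enzymes that drive the cell cycle. They are CDKN1A, CDKN1B, CDKN1C, CDKN2A, CDKN2B, CDKN2C, CDKN2D and CDKN3, and they were taken by symbol from the 28266 symbols of the count table, as a gene family and with no threshold on a measured value, though with earlier results of these data known. All 8 passed the filter on low counts in each fit. The 42 poly(A) RNA libraries form 12 groups and follow senescence and the knockdown of COPB2, a subunit of the coat of COPI vesicles. IMR90 is an established strain of fetal lung fibroblasts, and its derivative IMR90 ER:RAS expresses oncogenic HRAS fused to the oestrogen receptor, so that 4-hydroxytamoxifen (4OHT) activates it and the cells enter oncogene-induced senescence (OIS). The ER:RAS line was given DMSO or 100 nM 4OHT. The parental IMR90 was given DMSO or, for 24 h, 50 µg/ml of the DNA-breaking drug bleomycin.

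Every group carried an shRNA vector with a doxycycline-inducible promoter. All libraries, DMSO groups included, saw 1 µg/ml doxycycline for 72 h after 7 days of culture and were harvested at day 10. The vector was a control (shRNA control) or targeted COPB2 with 1 of 2 sequences (COPB2 shRNA #1, COPB2 shRNA #2). The control is titled shRNA control and described as shEV, and whether it holds a hairpin is not given in the sources used here. It is counted as a hairpin below. The labels give the genotype as WT, and whether the ER:RAS line is 1 clone is not given in the sources used here. Each ER:RAS group had 3 libraries (18 in all) and each IMR90 group had 4 (24 in all). DMSO-treated ER:RAS cells still carry the fusion gene, and bleomycin was given only to the line without it, so the senescence trigger and the cell line cannot be told apart. The study describes the replicates of its knockdown comparisons as independent experiments. The labels do not say this of each library, and p-values measure the spread between these libraries.

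CDK inhibitors fall into families by structure. The CIP/KIP proteins p21 (CDKN1A), p27 (CDKN1B) and p57 (CDKN1C) bind complexes of cyclins with CDKs, and p21 is induced after DNA damage. The INK4 proteins p16 (CDKN2A), p15 (CDKN2B), p18 (CDKN2C) and p19 (CDKN2D) bind CDK4 and CDK6 and so keep the retinoblastoma protein active. CDKN2A also encodes p14ARF, which binds MDM2 and is read in another frame from its own first exon. CDKN3 is a phosphatase that acts on CDKs, and dividing cells express it. The induction of p16 and p21 is widely used as a sign of senescence in fibroblasts.

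CDKN2A and CDKN2B are neighbours on chromosome 9 (GRCh38.p14). CDKN2A spans 21967752 to 21995324 and CDKN2B 22002903 to 22009313, both on the minus strand. Counts were given per gene symbol, so p16 and p14ARF transcripts could not be separated, and part of the second exons of CDKN2A and CDKN2B is alike, so reads there are uncertain. The bases before their start sites are printed because these genes answered RAS most differently from bleomycin. Those of CDKN3 are printed as an example of a gene that fell in both. CDKN1B, CDKN1C and CDKN2C fell in both as well and are not printed. They are taken from RefSeq (GRCh38.p14), run 5′ to 3′ on the strand of the gene and end at the last base before the start used. For CDKN2B this start lies inside the span given above, so the last printed bases lie within that span. In the first 3 the capitals mark GGGCGG on either strand, the letters of a GC box, and in CDKN3 they mark TTTGAA on either strand, the letters of a cell cycle homology region.
CDKN2B, chr9:22009306-22009555: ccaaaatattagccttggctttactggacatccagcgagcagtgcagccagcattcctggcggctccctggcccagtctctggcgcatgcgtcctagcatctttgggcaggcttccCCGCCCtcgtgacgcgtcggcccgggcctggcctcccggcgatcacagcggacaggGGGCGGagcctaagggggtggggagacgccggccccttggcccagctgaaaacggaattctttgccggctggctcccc
CDKN2A, p16 start, chr9:21974858-21975107: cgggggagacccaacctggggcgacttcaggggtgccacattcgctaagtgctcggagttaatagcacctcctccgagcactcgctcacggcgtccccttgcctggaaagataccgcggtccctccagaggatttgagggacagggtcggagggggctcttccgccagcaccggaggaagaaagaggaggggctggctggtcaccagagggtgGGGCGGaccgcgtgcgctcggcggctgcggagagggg
CDKN2A, p14ARF start, chr9:21995325-21995574: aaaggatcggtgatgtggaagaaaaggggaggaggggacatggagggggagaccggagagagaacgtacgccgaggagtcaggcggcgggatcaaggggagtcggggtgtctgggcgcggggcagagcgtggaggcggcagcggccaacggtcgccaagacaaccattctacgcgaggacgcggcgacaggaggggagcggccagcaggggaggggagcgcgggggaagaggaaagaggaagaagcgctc
CDKN3, chr14:54396757-54397006: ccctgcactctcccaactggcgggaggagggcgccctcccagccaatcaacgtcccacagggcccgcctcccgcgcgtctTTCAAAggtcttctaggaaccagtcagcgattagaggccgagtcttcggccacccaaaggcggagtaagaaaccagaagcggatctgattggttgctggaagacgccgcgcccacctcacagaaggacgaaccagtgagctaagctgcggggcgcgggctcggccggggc
Counted over windows of 300 bases (250 before the start to 50 after), GGGCGG was in 45% of 35116 RefSeq windows and TTTGAA in 15.2%. The CDKN2B window held 2 matches to GGGCGG, the p16 window 2 (1 of them after the start and not shown) and the p14ARF window 0. Among windows whose GGGCGG matches are not marked above, CDKN1A held 4, CDKN1B 1, CDKN2D 3 and CDKN3 0. The CDKN2C windows held 0, 6 and 1. The promoter set used held no window for CDKN1C. CDKN3 was the only 1 of the other 7 genes with a window that held TTTGAA, and it also held CCAAT at 2 places (34.6% of all windows held it). These matches describe letters and not binding.

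Total counts ran from 13148194 to 23597310 per library, and 3 counts, the floor used here, are 0.11 to 0.271 CPM, the count scaled to a common library size after TMM normalisation (trimmed mean of M values). Floors cover counting error only. HRAS stood at 2573 to 6785 CPM in ER:RAS and 23.04 to 174.6 in IMR90 libraries, and COPB2 at 267 to 620 CPM with the control shRNA and 33.9 to 121.9 with a COPB2 shRNA. The 9 fibroblast markers summed to 7990 to 27563 CPM over all groups, and of them 1 rose and 6 fell in OIS and 7 fell after bleomycin. With the control shRNA their sums were 11847 to 20914 CPM after bleomycin against 21634 to 27563 in IMR90 with DMSO, without overlap, and 14890 to 24483 in OIS against 18003 to 25131 with DMSO, with overlap. The 6 epithelial markers summed to at most 334 CPM over all groups. Of the 5 tested in OIS 1 rose and 2 fell, and of the 6 tested after bleomycin 2 rose. The 4 endothelial markers summed to 9.25 to 11.2 CPM in OIS against 1.203 to 3.67 in ER:RAS cells with DMSO, where CDH5 was at 0, and the 3 that were tested rose, while after bleomycin 2 rose and 1 fell. The 4 blood markers summed to 110.1 to 120.6 CPM in OIS and 58.95 to 98.2 after bleomycin against 13.4 to 40.2 with DMSO, where 1 of 2 tested rose in OIS and 2 of 3 after bleomycin. Most of that was CD68, a lysosomal gene of macrophages that other cells also express, while HBB was at 0 in the OIS libraries with the control shRNA. Their part in the results was not tested, and in bulk RNA fewer cells of a type cannot be told apart from less RNA per cell.

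**Figure D1:**
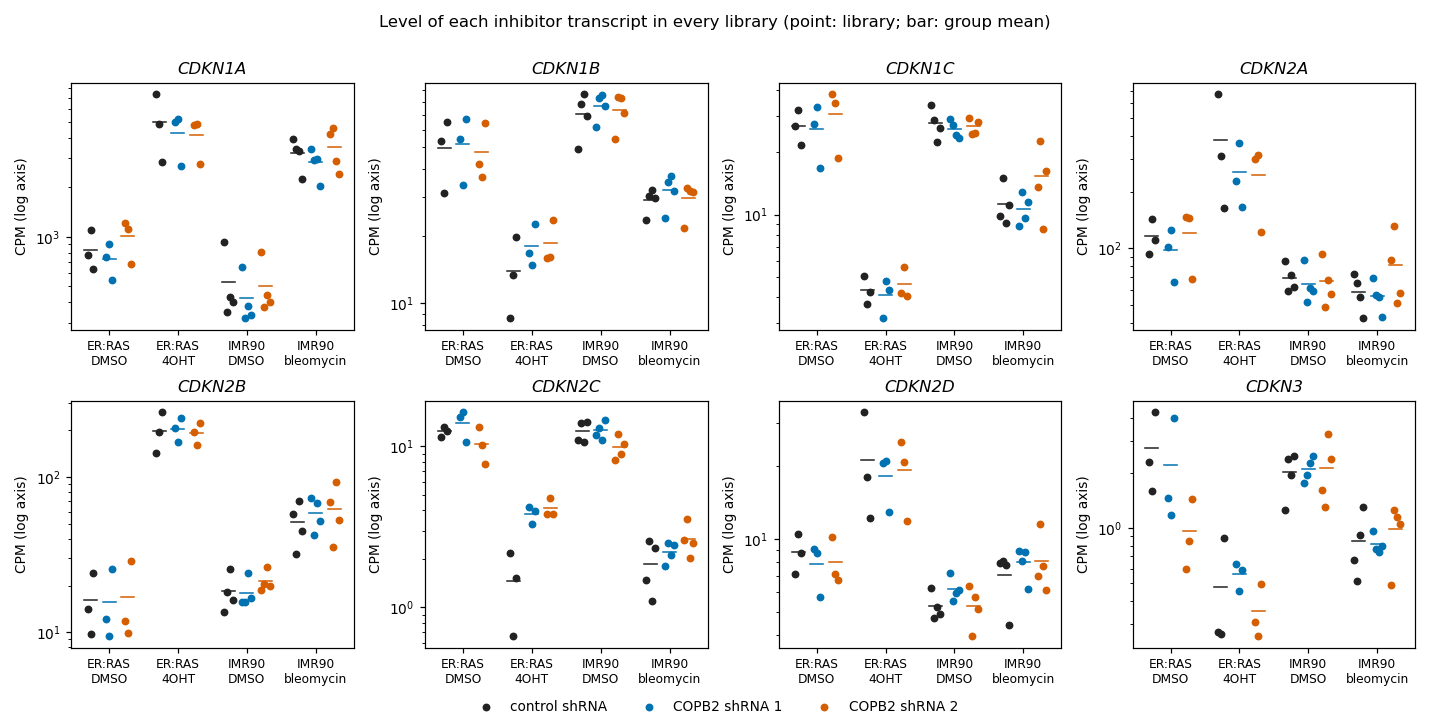
CPM on a log axis for each of the 8 genes in all 42 libraries (points), with the group mean as a bar and the 3 hairpins in colour. CDKN1A rose in both senescence models, and CDKN2B rose most in ER:RAS cells with 4OHT. CDKN2A passed as higher with 4OHT for the control shRNA and COPB2 shRNA #1 but not for #2, and did not pass the test with bleomycin.

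CDKN1A, which encodes p21, rose in both models, at 5.56-fold and 5.99-fold. It spans 36676463 to 36687332 on chromosome 6 (GRCh38.p14). With the control shRNA, the 3 libraries of DMSO-treated ER:RAS cells had 781, 1094 and 637 CPM, and those with 4OHT had 7332, 4856 and 2831. In IMR90 the 4 DMSO libraries had 937, 349.8, 434 and 401 CPM, and the 4 bleomycin libraries 3950.2, 3393, 3311 and 2229. No senescent library overlapped its DMSO group, and replicate 1 of the IMR90 DMSO group stood apart from the other 3. Replicate 1 was also the highest of the IMR90 DMSO groups with COPB2 shRNA #1 (654 CPM) and #2 (804 CPM). The rise was 5.56-fold in OIS, with 2.47 on the log2 scale (SE 0.35, adjusted p 5.30e-05). After bleomycin it was 5.99-fold, with 2.58 on that scale (SE 0.34, adjusted p 5.90e-06). The difference between both responses was -0.02 on the log2 scale (95% interval -1.05 to 1.009), so an inequality of up to about that size was not detectable.

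All 8 inhibitors passed the threshold in OIS, 4 higher and 4 lower, where 35.7% of 14297 genes did (15.5% higher and 20.2% lower). After bleomycin 6 of the 8 did, 2 higher and 4 lower, where 31.2% of 14783 genes did (15.4% higher and 15.8% lower). The threshold is an adjusted p under 0.05 over all genes tested. The libraries of all 8 inhibitors were without overlap between OIS and DMSO, as was so for 38.5% of all genes. After bleomycin this held for 5 inhibitors and 28% of all genes. Between the OIS and the bleomycin libraries it held for 5 inhibitors and 42% of all genes. The median log2 fold change of the 8 was -0.39 in OIS and -0.78 after bleomycin, and that of all genes tested -0.08 and -0.01. With DESeq2 size factors the median of all genes in OIS moved to 0.04, so the zero line of OIS depends on the scaling to that extent.

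CDKN2B, which encodes p15, rose in both models and rose more in OIS. The DMSO libraries of ER:RAS cells had 14.1, 9.76 and 24.2 CPM, and the OIS libraries had 143.5, 194 and 262. The IMR90 DMSO libraries had 13.4, 18.2, 25.6 and 16.1 CPM and the bleomycin libraries 57.8, 31.9, 70.1 and 44.7. The groups did not overlap in either line, and every OIS library lay above every bleomycin library. The change was 11.6-fold in OIS, with 3.53 on the log2 scale (SE 0.53, adjusted p 9.37e-05). It was 2.72-fold after bleomycin, with 1.44 (SE 0.27, adjusted p 0.000334).

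CDKN2A, which encodes p16 and p14ARF, separated both models by its call. The DMSO libraries of ER:RAS cells had 93.2, 144 and 110.7 CPM, and the OIS libraries 669, 312 and 165. All 3 OIS libraries were above all 3 with DMSO, and replicate 1 of OIS was far above the other 2. In IMR90 the DMSO libraries had 85.1, 59.2, 72.2 and 61.7 CPM and the bleomycin libraries 72.5, 65.03, 54.6 and 42.2, and these groups overlapped. The log2 fold change was 1.60 in OIS (SE 0.46, adjusted p 0.0124) and -0.27 after bleomycin (SE 0.26, 95% interval -0.81 to 0.27, adjusted p 0.479). The OIS call was lost without replicate 1 of OIS (1.00, adjusted p 0.0931) and without replicate 1 of DMSO (1.53, adjusted p 0.0559).

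The test of the difference between both responses passed for 3 of the 8 inhibitors, where 20.3% of 15299 genes passed. CDKN2B responded more strongly in OIS by 2.16 on the log2 scale (SE 0.51, adjusted p 0.00219), and CDKN2A by 1.97 (SE 0.54, adjusted p 0.00742). CDKN1C fell further in OIS, by -1.33 (SE 0.37, adjusted p 0.00854). Without replicate 1 of OIS the difference of CDKN2A was 1.29 (adjusted p 0.0748), and without replicate 3 of OIS CDKN2D (1.13, adjusted p 0.0434) and CDKN3 (-2.08, adjusted p 0.0390) passed as well. The other 5 differences, from -1.23 for CDKN3 to 0.85 for CDKN2D (95% interval 0.02 to 1.67), missed the threshold, and the interval of CDKN3 was -2.51 to 0.06.

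CDKN1C, which encodes p57 and is expressed from the maternal allele, fell in both models. It spans 2883218 to 2885775 on chromosome 11 (GRCh38.p14). The ER:RAS libraries had 26.7, 32.1 and 21.7 CPM with DMSO and 5.05, 3.701 and 4.24 in OIS. The IMR90 libraries had 33.7, 28.5, 22.5 and 26.3 CPM with DMSO and 9.86, 14.97, 9.15 and 11.1 after bleomycin. Both pairs of groups were apart, and the OIS libraries were the lowest of all. The level was 6.59-fold lower in OIS (log2 fold change -2.72, SE 0.30, adjusted p 5.22e-06) and 2.51-fold lower after bleomycin (log2 fold change -1.33, SE 0.22, adjusted p 8.96e-05).

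CDKN1B, which encodes p27, also fell in both. It spans 12717368 to 12722369 on chromosome 12 (GRCh38.p14). Its libraries had 53.3, 31.2 and 64.8 CPM in DMSO-treated ER:RAS cells and 8.57, 13.4 and 19.8 in OIS. In IMR90 they had 48.9, 78.0, 86.3 and 68.7 CPM with DMSO and 23.7, 30.2, 32.2 and 29.6 after bleomycin. No library overlapped the other group. The log2 fold change was -1.93 (SE 0.42, adjusted p 0.00200) in OIS and -1.32 (SE 0.18, adjusted p 1.31e-05) after bleomycin.

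CDKN2C, which encodes p18, was the most reduced inhibitor in both models by log2 fold change. It spans 50960745 to 50974634 on chromosome 1 (GRCh38.p14). The ER:RAS libraries had 11.5, 13.2 and 12.4 CPM with DMSO and 2.17, 0.661 and 1.52 in OIS, which were 24, 10 and 24 counts. The IMR90 libraries had 10.9, 13.99, 10.6 and 14.2 CPM with DMSO and 1.48, 2.58, 1.09 and 2.33 after bleomycin. The groups were far apart in both lines. The level was 9.18-fold lower in OIS (log2 fold change -3.20, SE 0.35, adjusted p 4.17e-06) and 6.77-fold lower after bleomycin (-2.76, SE 0.24, adjusted p 3.73e-08).

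CDKN2D, which encodes p19, rose in OIS with a small margin. It spans 10566460 to 10568979 on chromosome 19 (GRCh38.p14). The ER:RAS libraries had 7.18, 10.5 and 8.71 CPM with DMSO and 33.2, 17.9 and 12.2 in OIS. The IMR90 libraries had 6.28, 4.72, 5.23 and 4.90 CPM with DMSO and 7.95, 8.09, 7.77 and 4.41 after bleomycin, where replicate 4 was below all DMSO libraries. The log2 fold change was 1.15 in OIS (SE 0.34, adjusted p 0.0161) and 0.39 after bleomycin (SE 0.21, adjusted p 0.171). The OIS call was lost without replicate 1 of OIS (0.74, adjusted p 0.103), without replicate 1 of DMSO (1.08, adjusted p 0.0695) and when the fit held just the 6 libraries of this contrast (1.17, adjusted p 0.0893). Without replicate 4 of bleomycin the other model passed too (0.59, adjusted p 0.0328).

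CDKN3 was the least abundant of the 8 and fell in both. It spans 54397007 to 54420218 on chromosome 14 (GRCh38.p14). The OIS libraries held 3, 4 and 14 counts (0.271, 0.264 and 0.887 CPM) against 45, 25 and 89 counts with DMSO (2.29, 1.58 and 4.28 CPM). The bleomycin libraries had 0.670, 0.516, 0.920 and 1.30 CPM against 1.26, 2.38, 1.96 and 2.48 with DMSO, an overlap by 1 library. The log2 fold change was -2.57 in OIS (SE 0.63, adjusted p 0.00482) and -1.28 after bleomycin (SE 0.32, adjusted p 0.00383). Without replicate 3 of OIS, which held 14 of the counts, the OIS value was -3.40. Proliferation genes moved beside it. MKI67, a marker of cycling cells, stood at 3.80 to 9.63 CPM with DMSO and under the floor (0.0634 to 0.0903) in OIS, and at 5.03 to 7.44 with DMSO and 0.192 to 1.87 after bleomycin. The 6 proliferation markers summed to 107.5 to 188.6 CPM with DMSO and 85.6 to 94.3 in OIS, but to 93.1 to 131.8 with DMSO and 162 to 198 after bleomycin, where PCNA and AURKA rose. Of these 6, 1 rose and 5 fell in OIS, and 2 rose and 3 fell after bleomycin. Their part in the fall of CDKN3 was not tested.

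Levels of different genes were compared per kilobase of the canonical transcript. CDKN1A held 59.4% to 93.9% of the summed CPM per kb of the 8 genes in every group. CDKN2A was second in every group, at 20.6% in DMSO-treated ER:RAS cells, 13.8% in OIS, 18.2% in IMR90 with DMSO and 3.696% after bleomycin. CDKN2B moved from the seventh place (4.16 CPM per kb) to the third (51.9) in OIS and from the sixth (4.76) to the third (13.3) after bleomycin. CDKN3 was last throughout. Transcript lengths of CDKN2A differ between p16 and p14ARF, so its share depends on the transcript chosen.

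**Figure D2:**
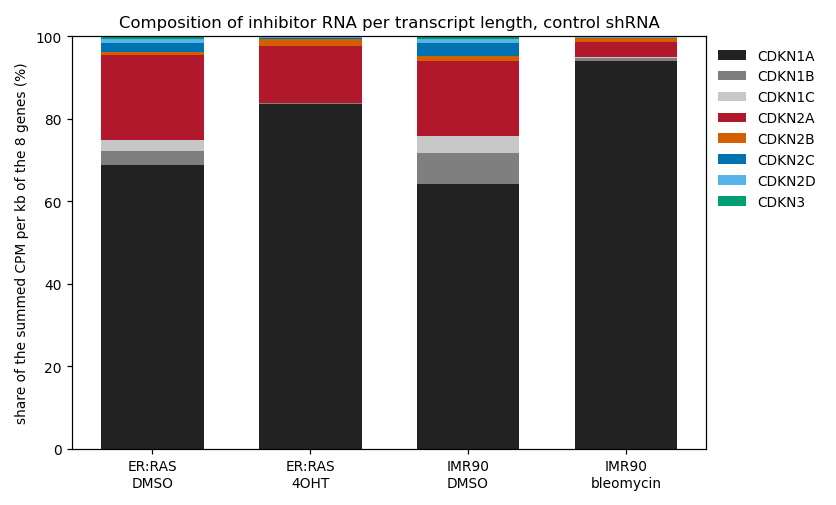
Share in percent of the summed mean CPM per kb of the 8 genes in the 4 groups with the control shRNA, stacked by gene. CDKN1A takes 68.7% and 64.3% with DMSO, 83.5% in OIS and 93.9% after bleomycin, while the CDKN2A share is 13.8% in OIS and 3.696% after bleomycin.

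At baseline, DMSO-treated ER:RAS and IMR90 cells with the control shRNA were compared. None of the 8 inhibitors passed by edgeR, where 0.346% of 15299 genes did. An unadjusted p under 0.05 was found for 1 of the 8, CDKN2D (0.0146), and for 1763 of the 15299 genes. DESeq2 called 0 of the 8 inhibitors. CDKN2D was 0.73 higher in ER:RAS on the log2 scale (95% interval 0.15 to 1.31, adjusted p 0.329) and CDKN2A 0.74 higher (-0.02 to 1.49, adjusted p 0.440). The libraries of these 2 genes did not overlap between the lines, as was so for 12.7% of all genes, with CDKN2A at 93.2 to 144 against 59.2 to 85.1 CPM. CDKN1A was 0.66 higher (-0.07 to 1.38), and CDKN2C stood at -0.01 (-0.53 to 0.51). With GC content and length as an offset, a fit chosen after seeing the data, the differences were smaller for some genes. CDKN2D was then 0.29 higher, CDKN2A 0.24 and CDKN1A 0.38. CDKN1B (-0.57), CDKN1C (-0.46) and CDKN2C (-0.21) moved further from 0 in that fit, and none passed.

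When senescent cells were set directly against each other, 5 of the 8 inhibitors passed, where 48.2% of 15299 genes did. OIS cells held more CDKN2A (6.52-fold, log2 SE 0.38, adjusted p 7.01e-07), CDKN2B (log2 difference 1.97, SE 0.36, adjusted p 3.24e-05) and CDKN2D (1.58, SE 0.28, adjusted p 2.71e-05). They held less CDKN1C (-1.38, SE 0.27, adjusted p 0.000101) and CDKN1B (-1.05, SE 0.28, adjusted p 0.00232). CDKN1A was 0.64 higher in OIS without passing (95% interval -0.09 to 1.36, adjusted p 0.140), and without replicate 3 of OIS it passed (0.92, adjusted p 0.0424). With GC content and length as an offset, a fit chosen after seeing the data, CDKN2A differed by 1.82 and CDKN2D by 0.83, and both still passed. Without replicate 1 of OIS CDKN2A differed by 2.03. By level, CDKN2A, CDKN2B and CDKN2D were the inhibitors that stood higher in OIS, CDKN1B and CDKN1C stood lower, and CDKN1A, CDKN2C and CDKN3 did not pass. CDKN3 was at -0.79 (adjusted p 0.187), and it passed with that offset (-0.91, adjusted p 0.0406) and without replicate 3 of OIS (-1.64, adjusted p 0.0267).

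The senescence response was also measured in cells with each COPB2 hairpin, in libraries that the control contrast does not use. In OIS all 8 inhibitors passed with COPB2 shRNA #1, where 36.9% of 14297 genes did, and 6 passed with #2, where 36.9% did. After bleomycin 6 passed with #1, where 35.2% of 14783 genes did, and 7 with #2, where 40% did. In OIS with #1 from 5 to 8 inhibitors passed when 1 library was left out. The calls of CDKN2A and CDKN2D were lost without replicate 1 (1.42 and 1.08) or 2 (1.02 and 1.08) of 4OHT or replicate 3 of DMSO (1.14 and 1.00), that of CDKN2A also without replicate 1 of DMSO (1.37), and that of CDKN3 without replicate 2 of 4OHT (-1.87) or replicate 3 of DMSO (-1.25). With #2 the call of CDKN1B was lost without replicate 1 (-1.27) or 2 (-1.28) of 4OHT or 3 of DMSO (-1.08), and that of CDKN2D without replicate 1 of 4OHT (1.00) or 2 of DMSO (1.07). The 2 inhibitors that missed with #2 passed in other fits. CDKN2A passed with the replicate number as a block (0.93, adjusted p 0.0191), with the GC and length offset (0.86, adjusted p 0.000247) and without replicate 3 of 4OHT (1.31, adjusted p 0.0486). CDKN3 passed with the block (-1.53, adjusted p 0.00365) and with the offset (-1.92, adjusted p 0.00269). CDKN1A changed by 2.46 and 1.96 in OIS and by 2.72 and 2.76 after bleomycin on the log2 scale with the 2 hairpins. CDKN2B changed by 3.62 and 3.42 in OIS (4.24 and 4.14 without replicate 3 of DMSO) and by 1.68 and 1.51 after bleomycin. CDKN2A changed by 1.30 (adjusted p 0.0342) and 0.95 (adjusted p 0.115) in OIS and by -0.24 (adjusted p 0.514) and 0.25 (adjusted p 0.472) after bleomycin.

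Over all 3 hairpins, CDKN1A lay at 547 to 1221 CPM (median 781) in the 9 DMSO libraries of ER:RAS cells and 2674 to 7332 (median 4846) in the 9 with 4OHT. CDKN2B lay at 9.38 to 28.9 (median 12.2) and 144 to 262 (median 194), without overlap. CDKN2A lay at 66.4 to 148 (median 110.7) and 122 to 669 (median 300.3), and these ranges overlapped. In IMR90 CDKN2A lay at 48.3 to 93.3 CPM (median 61.4) in the 12 DMSO libraries and 42.2 to 131 (median 56.8) in the 12 with bleomycin. The response of CDKN2C was -1.94 and -1.39 in OIS with the COPB2 hairpins against -3.20 with the control. CDKN3 missed the threshold in OIS with #2 (-1.52, adjusted p 0.0874), and CDKN2D passed after bleomycin with #2 (0.57, adjusted p 0.0342), a call lost without replicate 2 of bleomycin (0.38, adjusted p 0.156), without replicate 2 (0.47, adjusted p 0.119) or 4 (0.57, adjusted p 0.0701) of DMSO, with the GC and length offset (0.34, adjusted p 0.131), with no filter on low counts (0.54, adjusted p 0.0694) and with the compared libraries alone (0.58, adjusted p 0.104).

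**Figure D3:**
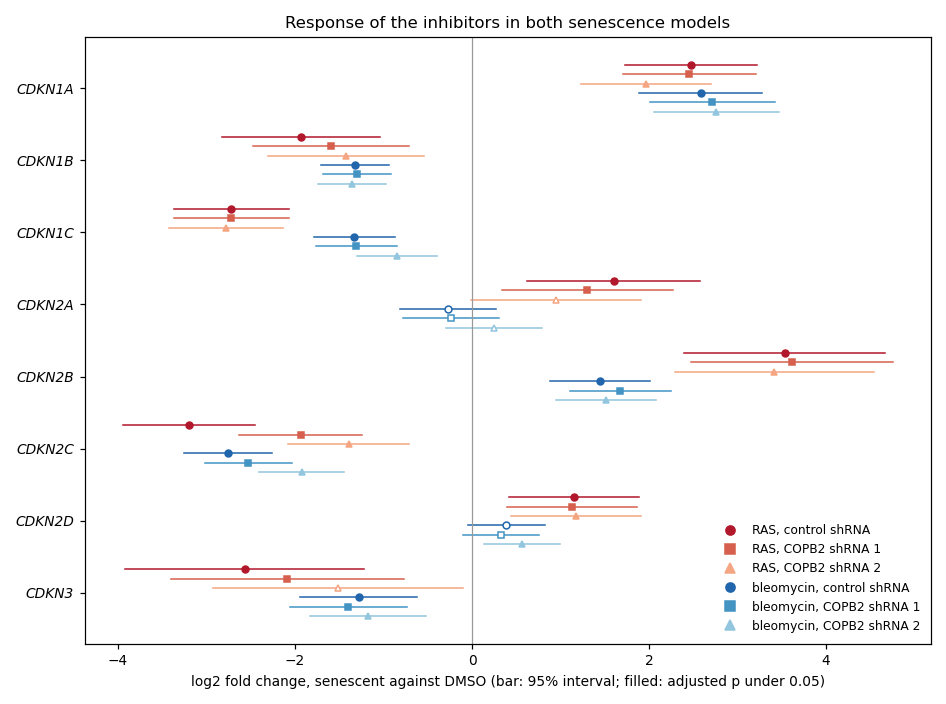
Log2 fold change of each inhibitor, senescent against DMSO, with its 95% interval, for OIS (red) and bleomycin (blue) and for the 3 hairpins. Filled symbols have an adjusted p under 0.05. CDKN1A lies at 1.96 to 2.76 in all 6, CDKN2B at 3.42 to 3.62 in OIS and 1.44 to 1.68 after bleomycin, and CDKN2A at -0.27 to 0.25 after bleomycin.

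The OIS libraries spread widely for several inhibitors, and for 5 of the 8 the replicates ranked by the base composition of the transcript. Replicate 1 had the highest and replicate 3 the lowest CPM of CDKN1A, CDKN2A and CDKN2D, whose canonical transcripts have a GC content of 57.3%, 58.2% and 61.2%. The order was the opposite for CDKN2B (44.2%) and CDKN1B (45.9%). CDKN2C (44.9%), CDKN1C (62.9%) and CDKN3 (41.6%) held to neither order. Across 11476 genes, log2 CPM changed with GC content by 0.845 per 10 percentage points in OIS replicate 1 and by -0.264 in OIS replicate 3, relative to the mean of all libraries. In ER:RAS cells replicate 3 had a negative slope in all 6 groups (-0.351 to -0.221) and the other replicates a positive one (0.059 to 0.845). In IMR90 the slopes of replicates 3 and 4 were negative (-0.459 to -0.125), and those of replicates 1 and 2 ran from -0.259 to 0.361. With these trends entered as an offset, a fit chosen after seeing the data, CDKN2A changed by 1.15 in OIS (SE 0.16, adjusted p 1.50e-05) and CDKN2B by 3.76 (adjusted p 2.49e-08). CDKN1A changed by 2.39 in that fit (adjusted p 1.58e-10). The difference between both responses was 1.58 for CDKN2A (adjusted p 7.09e-07) and 2.35 for CDKN2B (adjusted p 2.89e-06).

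**Figure D4:**
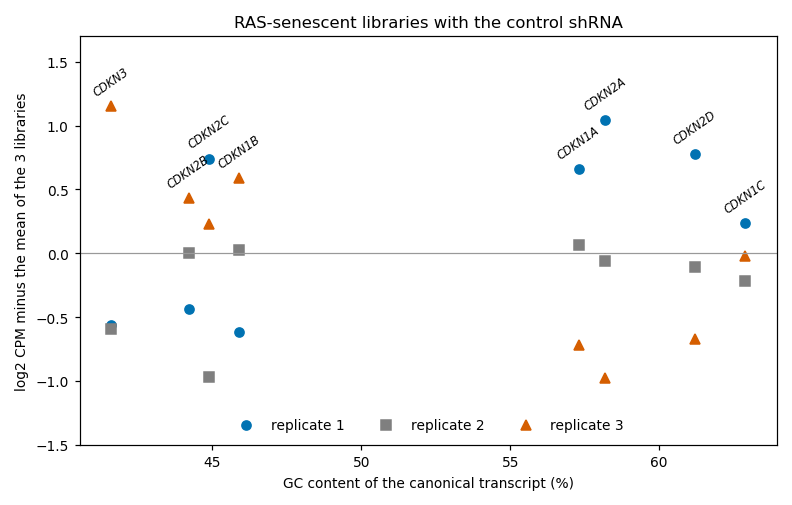
Deviation of log2 CPM from the mean of the 3 OIS libraries with the control shRNA (y) against the GC content of the canonical transcript in percent (x) for the 8 inhibitors. Replicate 1 is high and replicate 3 low for CDKN1A, CDKN2A and CDKN2D on the right, and the reverse holds for CDKN2B and CDKN1B on the left.

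COPB2 knockdown was compared with the control hairpin in each of the 4 cell states. None of the 8 inhibitors passed in any of the 8 contrasts by edgeR. The share of all genes that passed was 0.00699% with each hairpin in ER:RAS cells with DMSO, 0.14% and 0.224% in OIS, 0.00676% with each in IMR90 with DMSO, and 0.00676% and 0.0744% after bleomycin. At an unadjusted p under 0.05 there were 4 of 64 values, 3 of them for CDKN2C and 1 for CDKN3, where 0.811% to 6.74% of all genes had such a p per contrast. In DMSO-treated cells the shares were 0.811% and 0.93% in ER:RAS and 1.12% with each hairpin in IMR90. These are below the share that a p under 0.05 has without any effect, so the test was strict there. A missing call in these contrasts does not show that nothing changed. The DESeq2 Wald test called 2, both CDKN2C in OIS, where it called 0.357% of all genes with #1 and 0.49% with #2. Log2 fold changes ran from -0.31 to 0.23 for CDKN1A, -0.64 to 0.47 for CDKN2A and -0.07 to 0.30 for CDKN2B over the 8 contrasts. For CDKN1A with COPB2 shRNA #2 in OIS the 95% interval was -0.99 to 0.42, so smaller changes than these were not detectable.

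CDKN2C, which had 3 of these 4 values, is given in full. In OIS its libraries had 4.22, 3.29 and 3.97 CPM with COPB2 shRNA #1 and 3.81, 4.79 and 3.80 with #2, against 2.17, 0.661 and 1.52 with the control. Neither hairpin overlapped the control, as was so for 6.36% of all genes with #1 and 7.83% with #2, but both are set against the same 3 control libraries, and replicate 2 of these held 10 counts. The log2 fold change was 1.41 (SE 0.34, 95% interval 0.69 to 2.12, adjusted p 0.255) and 1.51 (SE 0.34, 95% interval 0.79 to 2.22, adjusted p 0.118). Over the alternatives the adjusted p ran from 0.0386 to 1.00 with #1 and from 0.00882 to 1.00 with #2. Without control replicate 2 the changes were 1.05 and 1.15, and without control replicate 1 they were 1.78 and 1.88, where #2 passed (adjusted p 0.0481). After bleomycin CDKN2C changed by 0.25 and 0.51, and with DMSO by 0.14 and -0.30 in ER:RAS and 0.02 and -0.32 in IMR90.

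Whether a hairpin acted differently in senescent and DMSO-treated cells was tested as an interaction. None of the 8 inhibitors passed in the 4 interactions by edgeR, where 0% of all genes did in each, and DESeq2 also called 0 inhibitors. At an unadjusted p under 0.05 there were 3 of 32 values, all for CDKN2C, where 0.819% to 1.93% of all genes had such a p per interaction. These shares too are below what a p under 0.05 has without any effect, so the test was strict here as well. The interaction of CDKN2C was 1.26 (95% interval 0.29 to 2.23) and 1.80 (0.83 to 2.78) in ER:RAS and 0.83 (0.16 to 1.51) with #2 in IMR90. CDKN3 had 0.594, 0.852 and 1.44 CPM with #2 in DMSO-treated ER:RAS cells, all below the control libraries, from 7, 14 and 30 counts, and the log2 fold change was -1.51 (SE 0.58, adjusted p 1.00).

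**Figure D5:**
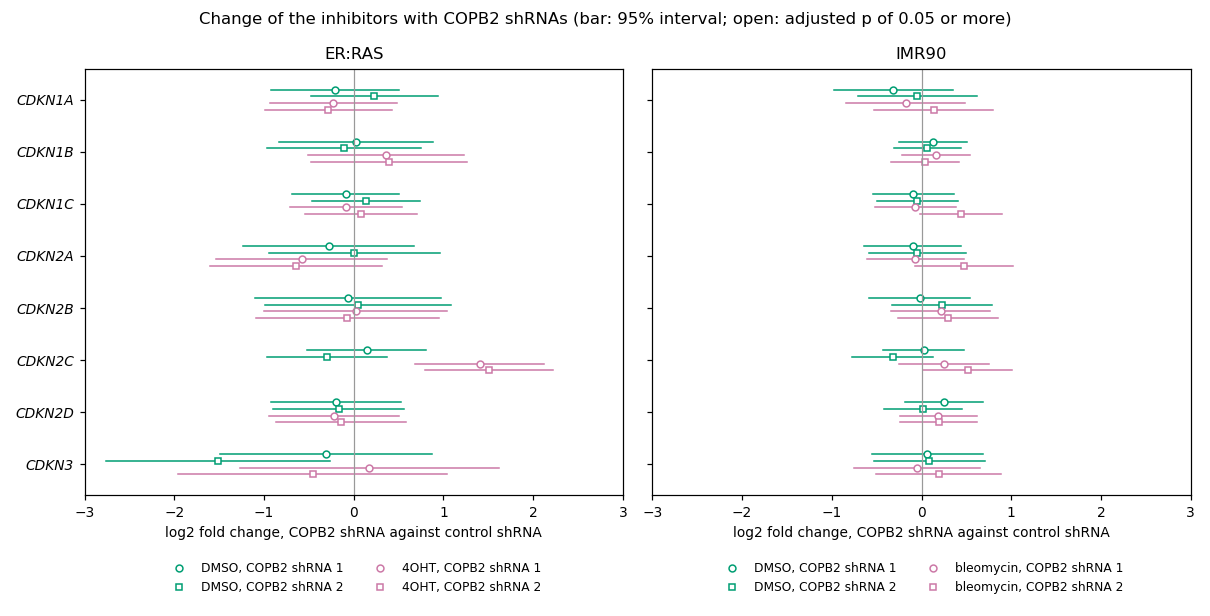
Log2 fold change of each inhibitor with COPB2 shRNA #1 and #2 against the control shRNA, with its 95% interval, in ER:RAS (left) and IMR90 (right), for DMSO (green) and senescent cells (pink). All symbols are open, since no adjusted p was under 0.05, and only CDKN2C in OIS (1.41 and 1.51) and CDKN3 with #2 in ER:RAS DMSO (-1.51) lie over 1 from 0.

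The partners of the inhibitors were read from a list of 27 CDKs, cyclins, CDC25 phosphatases, WEE1, retinoblastoma family and E2F genes. In OIS 7 rose, 7 fell and 13 did not pass, beside 15.5% of all genes higher and 20.2% lower. Of the 26 tested after bleomycin 7 rose, 5 fell and 14 did not pass, beside 15.4% and 15.8% of all genes. Among the D-type cyclins, which activate CDK4 and CDK6, CCND1 and CCND3 rose in both models. CCND1 changed by 1.42 (adjusted p 0.00113) in OIS and 1.79 (adjusted p 3.82e-07) after bleomycin, and CCND3 by 1.10 (adjusted p 0.0147) and 0.94 (adjusted p 0.00226). CCND2 rose after bleomycin (2.12, adjusted p 3.19e-06) and was at 0.46 (adjusted p 0.274) in OIS, a difference that passed (-1.58, adjusted p 0.00434).

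CCNE1, the cyclin that activates CDK2 at the start of DNA replication, rose by 2.05 (adjusted p 9.47e-06) in OIS and 1.10 (adjusted p 0.000287) after bleomycin. CDK4 (-0.54 and -0.58), CDK6 (-0.99 and 0.03) and RB1 (0.30 and -0.22) did not pass in either. CDK1 and CCNA2, which act in S phase and mitosis, fell in both, with CDK1 at -6.22 (adjusted p 0.00166) and -2.59 (adjusted p 0.00203) and CCNA2 at -3.90 (adjusted p 0.000203) and -0.88 (adjusted p 0.0335). CCNB2 fell further in OIS than after bleomycin, with a difference of -2.60 (adjusted p 3.92e-06). E2F7, a repressor of E2F targets, rose by 5.27 (adjusted p 4.41e-06) and 2.61 (adjusted p 9.77e-05). None of the 27 passed in any knockdown contrast.

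Of 16 genes known to control the inhibitors, 2 rose, 6 fell and 8 did not pass in OIS, and 2 rose, 5 fell and 9 did not pass after bleomycin. Those that passed are read beside 35.7% and 31.2% of all genes. Not all of them are named below. The 16 values ran from -3.03 to 1.66 in OIS and from -1.37 to 1.64 after bleomycin. Their differences between the models ran from -2.86 to 1.97, so the largest fall in OIS and the largest difference belong to genes not named here. MDM2, a ubiquitin ligase, rose after bleomycin (1.42, adjusted p 0.00257) with a value of -0.66 in OIS (adjusted p 0.529), and the difference passed, at -2.02 (adjusted p 0.0444). ETS1, an activator of p16, rose in OIS (1.66, adjusted p 0.0104) with a difference from bleomycin of 1.97 (adjusted p 0.00149), and ETS2 rose in both (0.79 and 0.67). EZH2, the polycomb enzyme that silences the INK4 locus, fell by 1.34 and 1.37 on the log2 scale (adjusted p 0.000331 and 4.81e-06). BMI1 (-0.42 and -0.61) and CBX7 (-0.32 and -0.32) did not pass. SKP2, which marks p27 for degradation, fell in both (-1.08 and -0.88).

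The genes beside the inhibitors were read as well, from a list of 8 of which 7 were tested in each line. In OIS 3 rose and 4 did not pass, beside 35.7% of all genes that passed. After bleomycin 2 rose, 2 fell and 3 did not pass, beside 31.2%. KCNQ1OT1, KCNQ1 and FAF1 are on the list, and their values are not given here. On the CDKN2A side of the INK4 locus MTAP rose in OIS (1.54, adjusted p 0.0120) and stood at 0.37 after bleomycin (adjusted p 0.254), and DMRTA1, on the CDKN2B side, rose in both (3.26 and 2.10). CDKN2B-AS1, the antisense RNA that overlaps CDKN2B, was at 0.384 to 1.15 CPM on average, near the floor. It fell after bleomycin (-1.57, adjusted p 0.0126) and was not called in OIS. The study's methods name a directional library kit and a strand-specific alignment, and the strand setting of the counting itself is not given in the sources used here. CDKN2B was at 16.02 to 199.8 CPM on average in the same groups. Beside CDKN1C, PHLDA2, another gene with maternal expression, rose by 3.28 (adjusted p 6.72e-06) and 1.77 (adjusted p 1.44e-05) where CDKN1C fell, and SLC22A18 (-0.22 in both) did not pass.

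The genes whose group means were most like those of an inhibitor were listed from the fit of all libraries, over 12 groups and with log2 CPM. These correlations describe a search over all tested genes and share libraries. For CDKN2B the closest was INHBA (Pearson r 0.998), then SVIP and KCNN3 (both 0.996), and THBS3 ran most opposite (-0.998). For CDKN1A they were ATP6V1E1 (0.995), IGFBP7 (0.994) and AKR1B1 (0.992), and for CDKN2A C9orf16 (0.997), RABL6 (0.996) and CAMTA1 (0.995), with PPM1D most opposite (-0.994). CDKN2D was closest to ETV4 (0.993) and CDKN3 to DEPDC1 (0.987), FAM111B (0.976) and PBK (0.973). CDKN1B was closest to ZNRF2 (0.995), CDKN1C to MTMR9LP (0.997) and CDKN2C to PLEKHF1 (0.973). Among the inhibitors themselves CDKN2A and CDKN2D ran most alike (0.930) after CDKN1B with CDKN1C (0.942), and CDKN1C and CDKN2B ran most opposite (-0.987). CDKN2A and CDKN2B, neighbours on the chromosome, had r of 0.676 over the 12 group means.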

How the data were processed

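The authors deposited 1 table of raw counts per gene symbol for all libraries, and no column was left unused. The submitters' processing notes name hg38, DRAGEN, STAR 2.7.8a and DESeq2 1.32.0, while the study's methods name TopHat and hg19, and which of them made the table is not given in the sources used here. Of the 28266 symbols, 26986 (95.5%) matched RefSeq GRCh38.p14, from which coordinates and upstream sequences were taken. The study's methods name a directional kit and strand-specific alignment, and the strand setting of the counting is not given.

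Counts were tested with edgeR 4.0.16 (limma 3.58.1, R 4.3.3) by the quasi-likelihood F-test after filterByExpr and TMM normalisation, with robust dispersions and Benjamini-Hochberg adjustment over all genes tested, and a call is an adjusted p under 0.05. One fit held the 18 ER:RAS libraries (14297 genes), one the 24 IMR90 libraries (14783 genes) and one all 42 (15299 genes), the last for contrasts between lines and for CPM. Fits were checked on simulated counts. Transcript length and GC content were found for 25055 symbols (88.6%). Alternatives were DESeq2 size factors, the DESeq2 1.42.0 Wald test, no filter, the replicate number as a block, only the groups compared, each library left out in turn and, chosen after seeing the data, a GC and length offset. No 2 libraries of a group agreed within sampling noise (lowest chi-square per degree of freedom 6.80). The members and lists were chosen with earlier results of these data known. Named genes were the 8 inhibitors, any gene of the lists of partners, regulators and chromosomal neighbours, and for each inhibitor the 3 genes with the highest and the 1 with the lowest correlation over group means. One gene of the regulator list is counted with it but not reported here by name.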

Additional observations from a re-analysis of the deposited data

Results flagged for a closer look

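In groups of 4 libraries, 5 of the 48 gene and group pairs held a library whose gap to the nearest other exceeded 0.829 of the range of the group (Dixon's 95% critical value), where chance gives about 1 in 20. CDKN1A stood at 937 CPM in replicate 1 of IMR90 with DMSO and the control shRNA, against 349.8 to 434 in the other 3, and at 804 CPM in replicate 1 with DMSO and COPB2 shRNA #2. In replicate 1 with DMSO and COPB2 shRNA #1 it stood at 654 CPM against 320 to 382 in the other 3, a gap under the critical value. CDKN1B stood at 21.8 CPM in replicate 1 of bleomycin with COPB2 shRNA #2, the lowest of its group. CDKN2B stood at 24.2 CPM in replicate 3 of DMSO with COPB2 shRNA #1, the highest of its group. CDKN2D stood at 4.41 CPM in replicate 4 of bleomycin with the control shRNA, against 7.77 to 8.09 in the other 3.

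The response to RAS activation and the response to bleomycin differed by test for 3 inhibitors, by 1.97 on the log2 scale for CDKN2A, 2.16 for CDKN2B and -1.33 for CDKN1C.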

How the results depend on the processing

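No direction of a called inhibitor reversed. Of 1005 values under other settings of the fit, 991 kept their side of the threshold, 4 lost a call and 10 gained one. Of 1456 values with 1 library left out, 1427 kept their side, 22 lost a call and 7 gained one. These totals include 12 knockdown and interaction contrasts without a called inhibitor, where no call could be lost. They are therefore no measure of how firm the calls are. In OIS with COPB2 shRNA #1, the call of CDKN2A held in 2 of 6 fits without 1 library. It held in 3 of 6 for CDKN2D and 4 of 6 for CDKN3, and in all 6 for CDKN1A, CDKN1B, CDKN1C, CDKN2B and CDKN2C. CDKN2D in OIS was 1.17 with only the libraries compared (adjusted p 0.0893). Over fits without 1 library, CDKN2A ran from 1.00 to 2.01 and CDKN2D from 0.74 to 1.47 in OIS, and CDKN2D from 0.32 to 0.59 after bleomycin. The difference between responses ran from 1.29 to 2.33 for CDKN2A, 0.36 to 1.13 for CDKN2D and -2.08 to -0.73 for CDKN3, and from 2 to 5 inhibitors passed it. In OIS with COPB2 shRNA #1, 5 to 8 inhibitors passed. With the hairpins in OIS, 0 to 1 passed for #2 without 1 library. With DESeq2's Wald test 1 passed for each hairpin, CDKN2C, and 1 passed for #2 with the replicate block (CDKN2C, 1.54, adjusted p 0.0453) and with the GC and length offset (1.54, adjusted p 0.0326). The cause was not tested.

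Same-numbered libraries did not all deviate together (lowest correlation -0.55 in ER:RAS and -0.47 in IMR90), and the main fits held no block by number. Such low values do not show that the numbers carry no block, since some same-numbered libraries deviated together. What these libraries share stays in the spread that the main fits measure. In ER:RAS the 15 pairs of replicate 3 correlated at 0.54 to 0.90, and replicates 1 and 2 had medians of 0.41 and 0.46 against -0.28 with other numbers. In IMR90 all pairs of replicates 1 and 3 were positive (lowest 0.16 and 0.37) and replicate 2 had a median of -0.20. With the replicate block CDKN2A (0.93, adjusted p 0.0191) and CDKN3 (-1.53, adjusted p 0.00365) also passed in OIS with COPB2 shRNA #2. Depth limits CDKN3 and CDKN2C, which held as few as 3 and 10 counts in OIS with the control shRNA.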
